A study of Mus musculus with 21 samples.

Results

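The IL-10 and TGF-beta signalling genes described here are Il10, Il10ra, Il10rb, Tgfb1, Tgfbr1, Tgfbr2, Tgfbi, Smad3, Smad7 and Il4ra, 10 of the 25067 genes with counts. They were taken by name, each through its RefSeq transcript of highest mean count, and all 10 passed the filter on low counts that left 12529 tested genes. The RNA came from cultured macrophages, derived from bone marrow over 7 days of differentiation with 15% L929-conditioned medium, a source of macrophage growth factor. The marrow came from male C57Bl6/J mice of 6 to 12 weeks. The 6 groups were Nur77-KO macrophages left untreated (0 h) or given 100 ng/ml lipopolysaccharide (LPS) for 4 or 18 h, with 3 libraries each (numbers 2, 3 and 4), and wild-type (WT) macrophages at the same times, with 4 libraries each (numbers 1 to 4). Nur77, an orphan nuclear receptor, is the product of Nr4a1. The genotype tag of the KO libraries reads cre, while the Cre promoter, its cell restriction and the deleted part of the gene were not stated. LPS is the bacterial cell wall component that macrophages sense through Toll-like receptor 4. The series is titled for the regulation of macrophage mechanics by Nur77, and the design asks how the LPS response of these genes differs between the genotypes. The labels number the libraries but do not say that each is a separate mouse or culture, so p-values measure the spread between libraries.

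IL-10 is a cytokine that restrains inflammatory macrophages. It binds a receptor of a ligand-specific chain (Il10ra) and a chain shared with related cytokines (Il10rb), which act through the kinases JAK1 and TYK2 and the transcription factor STAT3. TGF-beta 1 (Tgfb1) is secreted in a latent form, is freed at the cell surface and signals through a type II receptor kinase (Tgfbr2) that activates a type I receptor kinase (Tgfbr1). The type I receptor phosphorylates SMAD2 and SMAD3 (Smad3), which enter the nucleus with SMAD4, while SMAD7 (Smad7) is an inhibitor that the pathway induces to end its own signal. Tgfbi encodes a secreted matrix protein named for its induction by TGF-beta. Il4ra encodes the receptor chain through which IL-4 and IL-13 act on macrophages.

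Gene-assigned counts totalled 12301504 to 29650081 per library. Levels are given as CPM, counts scaled to library size with TMM factors. Fold changes are log2 values from edgeR's quasi-likelihood fit on all 21 libraries. A gene counts as called where the adjusted p (Benjamini-Hochberg, over the 12529 tested genes) is under 0.05. The targeted gene went in both directions, without overlap between genotypes. It was lower in KO at 0 h (not called) and 4 h (called, log2 -1.77), and higher at 18 h (called, log2 1.35). Both calls depended on single libraries, while the direction did not. At 4 h the gene was not called without WT number 1 (-0.85) or without KO number 2 (-1.55), 3 (-1.75) or 4 (-2.17). At 18 h it was not called without KO number 2 (1.32), KO number 4 (1.16) or WT number 1 (1.3). Nr4a1 averaged 12.3 CPM in KO and 14.7 CPM in WT libraries at 0 h, 0.871 and 3.11 CPM at 4 h, and 2.85 and 1.1 CPM at 18 h, so KO and WT stand throughout for libraries labelled KO and WT. Which part of the gene the deletion removes is not known here. At 18 h the transcript, at only 12 to 49 counts a library, goes against the label, which bears on every genotype direction at 18 h. The 8 macrophage markers summed to 13100 to 24800 CPM over all libraries. Stromal markers, 10 genes that include collagens and Dcn, summed to 39.1 to 685 CPM in KO and 10.8 to 49.1 CPM in WT libraries at 18 h, to 32.6 to 402 CPM in KO and 11.2 to 59.9 CPM in WT libraries at 4 h, and to 96.8 to 168 CPM in KO and 2.95 to 104 CPM in WT libraries at 0 h. Of the 8 stromal markers that were tested, 7 were higher in KO at 18 h and none was called at 4 or 0 h (median log2 2.48 and 1.78). Among KO libraries, number 4 had the highest mean stromal marker level at each time, and results that rest on it are given with and without it. Of 7 tested markers of neutrophils and their precursors, 6 were higher in KO at 0 h (median log2 2.01), where 139 of the 12529 tested genes were called higher, none was called at 4 h (median 0.75) and 5 were higher at 18 h (median 1.28). That list summed to 76.7 to 130 CPM in KO and 27.7 to 48.7 CPM in WT libraries at 0 h, and to 327 to 461 CPM in KO and 190 to 277 CPM in WT libraries at 18 h. Its precursor genes Mpo and Prtn3 were at 0 in every KO library at 18 h, as were Mpo, Elane and Prtn3 in every WT library. The part of such cells in the genotype differences was not tested. Dendritic cell markers summed to 16.9 to 23.0 CPM in KO and 8.37 to 10.3 CPM in WT libraries at 18 h. T cell markers summed to 102 to 133 CPM in KO and 42.5 to 74.5 CPM in WT libraries at 18 h, with Cd3d, Cd3e and Cd3g at no more than 0.213 CPM in any library. B cell markers reached at most 3.4 CPM and mast cell markers 0.85 CPM in any library. WT number 1 stood apart from the other WT libraries over all genes at 4 h, with a chi-square per degree of freedom of 43.65 to 68.97 against them and 6.99 to 13.15 among them, and at 0 h, with 28.51 to 33.28 and 8.1 to 13.81, and results that rest on it are given with and without it. In bulk RNA, fewer cells of a type and less RNA per cell cannot be told apart.

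Positions are on mm10. Il10 (NM_010548) lies on chromosome 1 from 131019845 to 131024970, Il10ra (NM_008348) on chromosome 9 from 45253837 to 45269149 and Il10rb (NM_008349) on chromosome 16 from 91406157 to 91425834. Tgfb1 (NM_011577) lies on chromosome 7 from 25687002 to 25705077, Tgfbr1 (NM_009370) on chromosome 4 from 47353222 to 47414926 and Tgfbr2 (NM_009371) on chromosome 9 from 116087695 to 116175363. Tgfbi (NM_009369) lies on chromosome 13 from 56609586 to 56639359, Smad3 (NM_016769) on chromosome 9 from 63646766 to 63757994 and Il4ra (NM_001363983) on chromosome 7 from 125552271 to 125579474. Smad7 (NM_001042660) is on chromosome 18. All 10 are protein-coding. In a GENCODE annotation, Il10rb shares 569 exon bases with Gm21970 on the same strand and Il4ra shares 571 exon bases with Gm44876 on the other strand. With the strand setting of the authors' counting unknown, the counts of these 2 genes are less certain than the others.

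The levels spanned a wide range when divided by transcript length. In WT cells at 0 h, Tgfb1 stood at 162 CPM per kb and Il10rb at 141, well above Il10ra (56.9), Tgfbr2 (36.2), Tgfbr1 (22.9) and Tgfbi (16.2). Smad3 stood at 6.03, Il10 at 1.36 and Smad7 at 0.622 CPM per kb. At 18 h in WT cells the order was led by Il10rb (207 CPM per kb) and Tgfbi (202), with Tgfb1 at 103. In KO cells at 18 h Il10rb stood at 258, Tgfbi at 150 and Tgfb1 at 92.9 CPM per kb. No length was found for the Il4ra transcript.

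**Figure D1:**
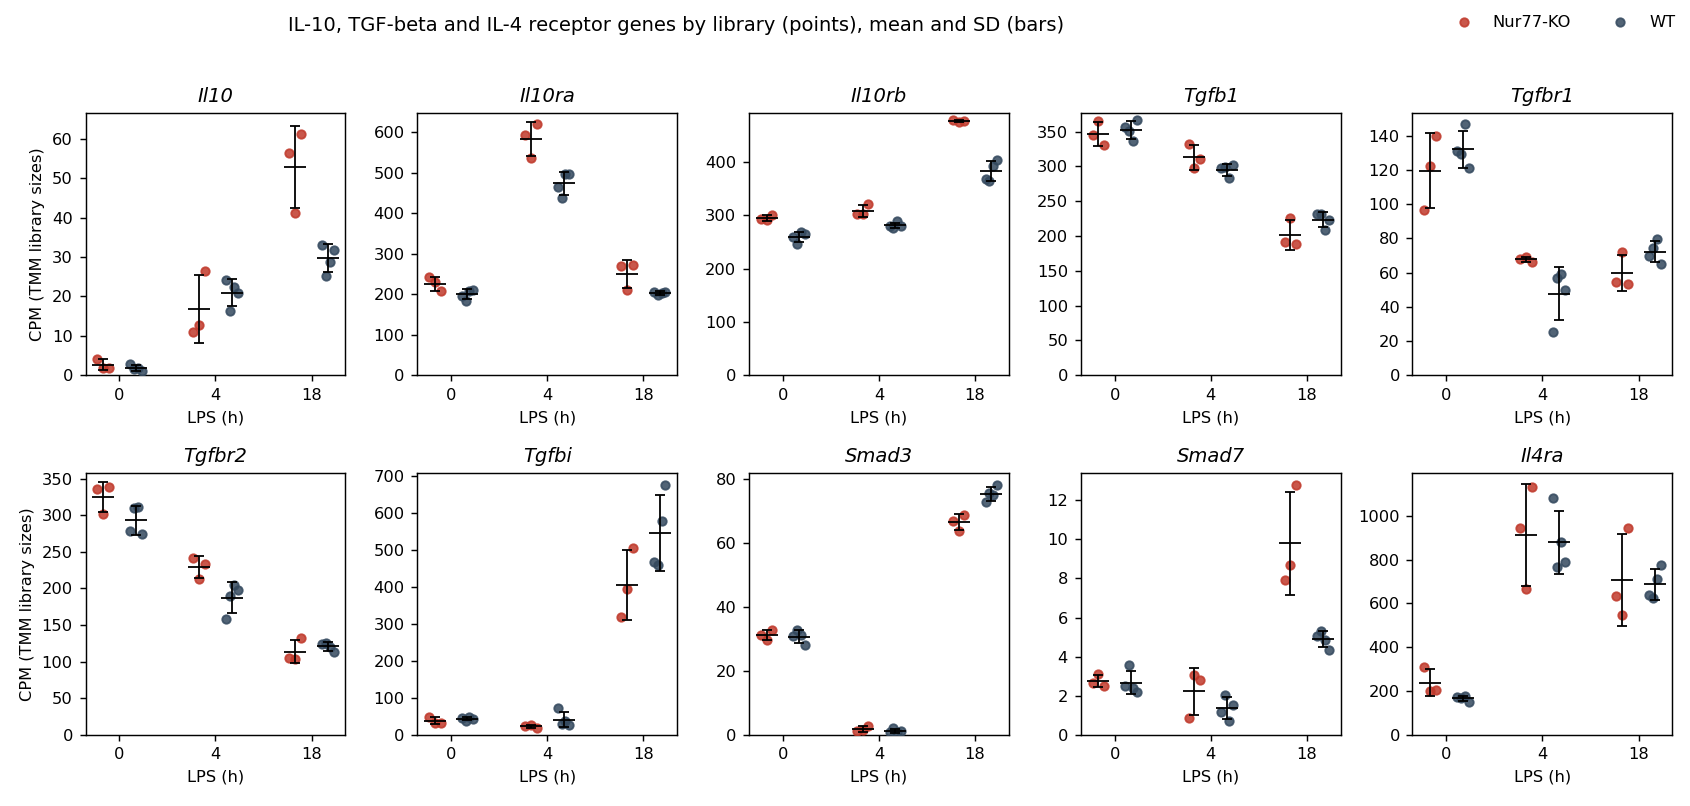
CPM of each gene (y axis, from 0) against hours of LPS (x axis), 1 point a library, KO in red to the left of WT in dark grey; bars are the mean and the SD of 3 KO or 4 WT libraries. Il10, Il10rb and Smad7 are highest at 18 h with KO above WT, Il10ra peaks at 4 h, and Smad3 is near 0 at 4 h in both genotypes.

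LPS raised Il10, the ligand, in both genotypes. In KO cells Il10 measured 4.24, 1.87 and 1.78 CPM at 0 h, 10.9, 12.8 and 26.6 CPM at 4 h, and 56.5, 41.2 and 61.2 CPM at 18 h (numbers 2, 3 and 4). In WT cells it measured 2.74, 1.48, 1.75 and 1.12 CPM at 0 h, 24.3, 16.4, 22.4 and 20.9 CPM at 4 h, and 33.1, 25.2, 28.8 and 31.8 CPM at 18 h (numbers 1 to 4). Within each genotype no library of one time overlapped another time. At 4 h Il10 was 6.71-fold higher than at 0 h in KO (log2 2.75 ± 0.34 SE, edgeR adjusted p = 2.5e-07) and 11.4-fold higher in WT (3.51 ± 0.29, edgeR adjusted p = 4.3e-10). At 18 h it was 20.6-fold above 0 h in KO (4.37 ± 0.34) and 16.0-fold in WT (4.0 ± 0.29). At 18 h against 4 h the KO value was 1.62 ± 0.29 (edgeR adjusted p = 4e-05), and the WT value of 0.49 ± 0.24 did not pass (edgeR adjusted p = 0.073).

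The 2 receptor chains followed different courses. Il10ra, the ligand-binding chain, measured 242, 229 and 207 CPM at 0 h, 592, 536 and 619 CPM at 4 h and 269, 210 and 272 CPM at 18 h in KO libraries. In WT libraries it measured 195, 184, 209 and 210 CPM at 0 h, 465, 438, 497 and 497 CPM at 4 h and 206, 197, 204 and 205 CPM at 18 h. Il10ra thus stood highest at 4 h in both genotypes, by log2 1.37 ± 0.1 in KO and 1.25 ± 0.08 in WT over 0 h, and at 18 h its libraries overlapped those at 0 h in each genotype (0.15 ± 0.1 in KO and 0.03 ± 0.08 in WT, neither called; 0.26 and called in KO without number 3 at 18 h). The fall after 4 h was log2 -1.22 in both genotypes (SE 0.1 in KO, 0.08 in WT).

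Il10rb, the shared chain, was higher at 18 h. It measured 294, 291 and 301 CPM at 0 h, 302, 303 and 321 CPM at 4 h and 480, 475 and 478 CPM at 18 h in KO libraries, and 259, 246, 269 and 265, then 280, 277, 289 and 280, then 369, 365, 393 and 404 CPM in WT libraries. Over 0 h the 18 h value was log2 0.69 ± 0.07 in KO (edgeR adjusted p = 4.2e-09) and 0.56 ± 0.06 in WT (edgeR adjusted p = 1.3e-08). At 4 h the values were 0.06 ± 0.06 in KO and 0.12 ± 0.06 in WT, and neither passed. Their sign depended on the scaling: with upper-quartile factors Il10rb was called lower at 4 h in KO (-0.27, edgeR adjusted p = 0.00065) and in WT (-0.23, edgeR adjusted p = 0.00076). That scaling moved the median of all tested genes at 4 h to -0.47 in KO and -0.52 in WT, against -0.14 in KO and -0.17 in WT with TMM, and relative to the median Il10rb stood at 0.20 in KO and 0.29 in WT under both.

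On the TGF-beta side, the ligand and both receptors were lower at 18 h of LPS than at 0 h. Tgfb1 ranged over 331 to 365 CPM at 0 h, 297 to 332 CPM at 4 h and 188 to 226 CPM at 18 h in KO libraries, and over 336 to 367, 283 to 302 and 208 to 232 CPM in WT libraries. Its 18 h libraries lay below its 0 h libraries in each genotype, by log2 -0.78 ± 0.08 in KO and -0.66 ± 0.07 in WT (edgeR adjusted p = 1.4e-08 and 2.1e-08). At 4 h the difference from 0 h passed in WT (-0.26 ± 0.07, edgeR adjusted p = 0.0017) and not in KO (-0.15 ± 0.08, edgeR adjusted p = 0.091), and the difference between those 2 responses was 0.11 ± 0.1 (edgeR adjusted p = 0.79). The median of all tested genes at 4 h was -0.17 in WT and -0.14 in KO. Relative to it Tgfb1 stood at -0.09 in WT and -0.01 in KO at 4 h. At 18 h it stood at -0.61 in WT and -0.70 in KO relative to the median at that time.

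Tgfbr2, the type II receptor, fell stepwise. Its KO libraries held 336, 302 and 338 CPM at 0 h, 242, 213 and 234 CPM at 4 h and 105, 104 and 132 CPM at 18 h. Its WT libraries held 278, 310, 311 and 274, then 158, 189, 205 and 198, then 124, 126, 120 and 113 CPM. The 3 times did not overlap in either genotype, and at 18 h Tgfbr2 was 2.86-fold lower than at 0 h in KO (log2 -1.52 ± 0.1) and 2.43-fold lower in WT (-1.28 ± 0.09). Tgfbr1, the type I receptor, held 96.8, 122 and 140 CPM at 0 h, 68.1, 68.9 and 66.2 CPM at 4 h and 54.5, 71.8 and 53.2 CPM at 18 h in KO, and 131, 129, 147 and 121, then 25.1, 56.7, 59.2 and 49.7, then 69.7, 74.6, 79.6 and 65.2 CPM in WT. It was lowest at 4 h in WT and partly regained there by 18 h (0.61 ± 0.18 over 4 h, edgeR adjusted p = 0.0043), whereas the KO libraries of 4 and 18 h overlapped (-0.18 ± 0.21, not called). WT number 1 at 4 h held the lowest Tgfbr1 value, and without it the WT value over 4 h was 0.39 and still called. Against 0 h the 18 h value of Tgfbr1 was -1.0 ± 0.2 in KO and -0.87 ± 0.17 in WT.

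Smad3, the receptor-regulated transducer, showed the widest swing of the 10 genes. It measured 31.3, 29.7 and 32.9 CPM at 0 h, 1.27, 1.41 and 2.81 CPM at 4 h and 66.7, 63.8 and 68.8 CPM at 18 h in KO libraries. In WT libraries it measured 30.8, 32.7, 31.2 and 28 CPM at 0 h, 0.738, 1.97, 0.731 and 1.21 CPM at 4 h and 72.8, 75.5, 74.9 and 78 CPM at 18 h. At 4 h Smad3 was thus 15.8-fold lower than at 0 h in KO (log2 -3.99 ± 0.19, edgeR adjusted p = 4.6e-14) and 27.0-fold lower in WT (-4.75 ± 0.18, edgeR adjusted p = 2.9e-16). At 18 h it was 33.6-fold above 4 h in KO (5.07 ± 0.19) and 66.1-fold in WT (6.05 ± 0.17), and above its 0 h level by 1.08 ± 0.13 in KO and 1.29 ± 0.12 in WT.

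Smad7, the inhibitory Smad, was low at 0 and 4 h and higher at 18 h. It held 2.65, 3.10 and 2.52 CPM at 0 h, 0.85, 3.04 and 2.81 CPM at 4 h and 7.92, 8.67 and 12.8 CPM at 18 h in KO libraries, and 2.50, 3.55, 2.41 and 2.20, then 1.17, 2.06, 0.731 and 1.52, then 5.07, 5.32, 4.83 and 4.36 CPM in WT libraries. Its 18 h libraries stood above every earlier library of the same genotype, by log2 1.84 ± 0.29 over 0 h in KO (edgeR adjusted p = 6.8e-06) and 0.87 ± 0.25 in WT (edgeR adjusted p = 0.0034). At 4 h Smad7 was lower than at 0 h in WT (-0.96 ± 0.29, edgeR adjusted p = 0.0047), and in KO the value was -0.27 ± 0.32 and did not pass.

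Tgfbi, the matrix protein gene, was far higher at 18 h of LPS than at either earlier time. It held 49.1, 33.0 and 32.8 CPM at 0 h, 22.6, 25.8 and 19.4 CPM at 4 h and 318, 395 and 507 CPM at 18 h in KO libraries, and 46.8, 37.8, 48.9 and 42.1, then 71.8, 28.2, 36.5 and 27.6, then 469, 461, 580 and 677 CPM in WT libraries. At 18 h it was 10.6-fold above 0 h in KO (log2 3.41 ± 0.29, edgeR adjusted p = 8e-10) and 12.5-fold in WT (3.64 ± 0.25, edgeR adjusted p = 2.7e-11). At 4 h it was lower than at 0 h in KO (-0.77 ± 0.29, edgeR adjusted p = 0.02), a call that ended without KO number 2 at 0 h (-0.56), without KO number 4 at 4 h (-0.66) and with DESeq2 (-0.67). In WT the value was -0.09 ± 0.24 with WT number 1, whose 71.8 CPM stood above the other WT libraries, and -0.52 without it, which was called lower (edgeR adjusted p = 0.013).

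Tgfbi and Tgfb1, which went opposite ways by 18 h, are shown with the 250 bases before their annotated starts (RefSeq, GRCm38.p6, both on the plus strand), Tgfbi at chr13:56609336-56609585 and Tgfb1 at chr7:25686752-25687001. Capitals mark a match to the interferon-stimulated response element in Tgfbi and a match to the NF-kB motif in Tgfb1.
Tgfbi: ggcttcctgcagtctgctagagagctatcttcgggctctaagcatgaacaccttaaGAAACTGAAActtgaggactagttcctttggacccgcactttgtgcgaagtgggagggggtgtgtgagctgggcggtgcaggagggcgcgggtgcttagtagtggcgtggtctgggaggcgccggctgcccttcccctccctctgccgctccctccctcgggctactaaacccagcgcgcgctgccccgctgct
Tgfb1: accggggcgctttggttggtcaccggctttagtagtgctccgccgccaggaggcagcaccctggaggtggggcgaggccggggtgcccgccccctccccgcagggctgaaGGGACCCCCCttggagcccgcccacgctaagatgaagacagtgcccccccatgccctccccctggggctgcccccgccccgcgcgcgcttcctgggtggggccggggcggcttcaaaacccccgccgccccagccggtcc
The Tgfbi match starts 194 bases before the start site and the Tgfb1 match 140 bases before it. RefSeq windows of 300 bases, from 250 before to 50 after a start, were found for 6 of the 10 genes (Tgfb1, Tgfbr1 with 2 starts, Tgfbr2, Tgfbi, Smad3 and Il4ra) and searched on both strands. The interferon-stimulated response element was searched as GAAA, any 2 bases, then GAAA, which 3.44% of 32851 such windows hold, and it was in the Tgfbi window alone. The NF-kB motif, held by 8.46% of windows, was in those of Tgfb1 and of Il4ra, where it starts 21 bases after the start. The short Smad element CAGAC, held by 49.6% of windows, was in those of Il4ra, Tgfbi, Tgfbr1 and Tgfbr2. The full Smad box GTCTAGAC (0.213% of windows), the NBRE that Nur77 binds as a monomer (AAAGGTCA, 1.51%), AP-1 (TGANTCA, 7.81%), CRE (TGACGTCA, 1.79%) and the STAT motif TTCNNNGAA (8.3%) were in none of the 6 genes' windows. The interferon-element and NF-kB matches overlapped no other match. A match is a run of letters and not a shown binding site.

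Il4ra, the IL-4 and IL-13 receptor chain, was raised by LPS at both times. It ranged over 201 to 309 CPM at 0 h, 667 to 1130 CPM at 4 h and 547 to 945 CPM at 18 h in KO libraries, and over 152 to 177, 767 to 1080 and 623 to 777 CPM in WT libraries. Over 0 h it was 3.83-fold higher at 4 h in KO (log2 1.94 ± 0.21) and 5.24-fold higher in WT (2.39 ± 0.18). At 18 h it was still 2.97-fold above 0 h in KO (1.57 ± 0.2) and 4.1-fold in WT (2.04 ± 0.18). Its 18 h and 4 h libraries overlapped in both genotypes (-0.37 in KO and -0.35 in WT, neither called). In KO that fall was called without number 3 at 4 h (-0.55) or number 4 at 18 h (-0.63).

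Counted over the list, LPS moved most of the 10 genes, as it moved most genes tested. At 4 h against 0 h, 3 of 10 were higher and 4 lower in KO, beside 33.5% higher and 41.5% lower of all tested genes (75.0% called), and 3 were higher and 5 lower in WT, beside 35.1% and 43.0% (78.1% called). At 18 h against 0 h, 6 were higher and 3 lower in KO, beside 34.5% and 38.5% (73.0% called), and 6 were higher and 3 lower in WT, beside 34.8% and 36.3% (71.1% called). At 18 h against 4 h, 5 were higher and 3 lower in KO, beside 33.3% and 32.1% (65.4% called), and 5 were higher and 3 lower in WT, beside 37.2% and 34.5% (71.7% called). The split of all genes moved with the scaling. Of the genes called at 4 h against 0 h, 44.7% were higher in KO and 45% in WT, and with upper-quartile factors 33.4% in KO and 32.6% in WT. At 18 h against 0 h in WT the share was 48.9%, and 38.6% with upper-quartile factors. The median log2 fold change of the 10 genes at 18 h against 0 h was 0.89 in KO and 0.72 in WT, beside -0.08 and -0.05 over all tested genes. Higher at 18 h in both genotypes were Il10, Il10rb, Tgfbi, Smad3, Smad7 and Il4ra, and lower were Tgfb1, Tgfbr1 and Tgfbr2.

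**Figure D2:**
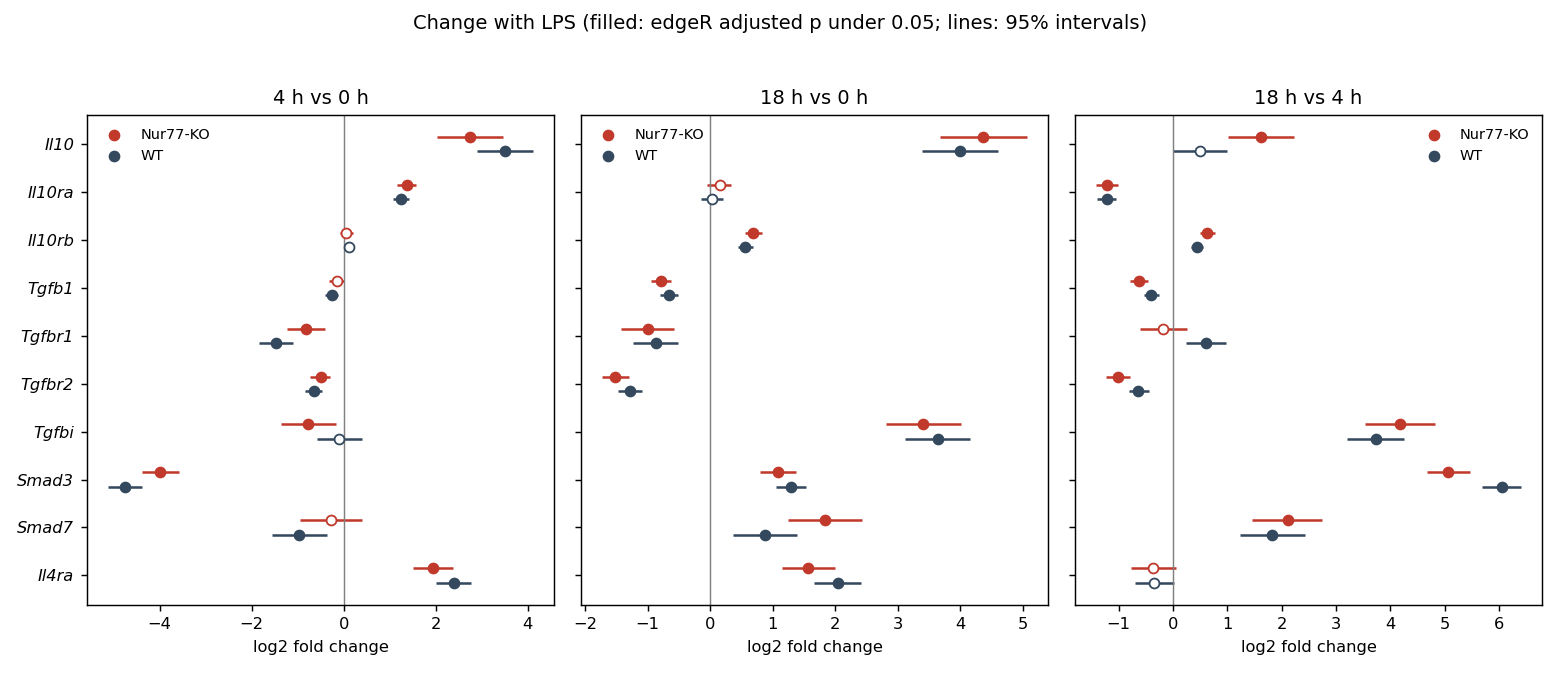
Log2 fold change with LPS (x axis) of each gene in KO (red) and WT (dark grey), with 95% intervals as lines and filled points for edgeR adjusted p under 0.05; the panels compare 4 with 0 h, 18 with 0 h and 18 with 4 h. Smad3 spans the widest range, from -4.75 (WT) at 4 h against 0 h to 6.05 (WT) at 18 h against 4 h.

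Between the genotypes, the IL-10 axis stood higher in KO at 18 h of LPS. Il10, both chains of its receptor and Smad7 were called higher, and none of the 10 genes was called lower. At 18 h every KO library exceeded every WT library for these 4 genes, and Smad3 was the fifth gene without overlap, where 35.8% of all tested genes had none. Il10 averaged 52.9 ± 10.5 CPM in KO (SD, n = 3) and 29.7 ± 3.51 CPM in WT (SD, n = 4), a 1.79-fold difference (log2 0.84 ± 0.25 SE, edgeR adjusted p = 0.015). Il10ra averaged 250 ± 34.7 CPM in KO and 203 ± 3.78 CPM in WT (0.30 ± 0.09, edgeR adjusted p = 0.013). Il10rb averaged 478 ± 2.55 CPM in KO and 383 ± 19.0 CPM in WT (0.32 ± 0.06, edgeR adjusted p = 0.00046). Smad7 averaged 9.8 ± 2.63 CPM in KO and 4.89 ± 0.408 CPM in WT, a 2.0-fold difference (1.0 ± 0.26, edgeR adjusted p = 0.0052). The count of 4 of 10 higher stands beside 16.6% of all tested genes called higher in that comparison and 15.6% called lower (32.2% in all), and the median of the 10 genes was -0.02, beside -0.01 over all tested genes. Of the genes called, 51.4% were higher, and 59.5% with median-of-ratios and 44.6% with upper-quartile factors. DESeq2 and limma-voom also called 4 of the 10. Over all tested genes DESeq2 called 2527 higher and 1664 lower of 12525, and limma-voom 1954 higher and 1809 lower of 12529.

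KO number 4 bore on 3 of these 4 calls. Without it, Il10rb alone was called (0.32, edgeR adjusted p = 0.0032), while Il10 stood at 0.72 (edgeR adjusted p = 0.079), Il10ra at 0.24 (0.094) and Smad7 at 0.76 (0.061), and the share of all genes called higher fell to 10.6%. The Il10ra call also ended without KO number 2 (0.25, edgeR adjusted p = 0.07). With the library of highest stromal level left out of each group, an alternative chosen after the data were seen, Il10rb was again the 1 gene called (0.33), with Il10 at 0.70, Il10ra at 0.24 and Smad7 at 0.75. Each group holds 1 library fewer in that fit, so a call can be lost there without a smaller difference. KO number 4 also held the highest Il10, Il10ra and Smad7 values at 18 h, and the part of stromal cells in these differences was not tested.

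**Figure D3:**
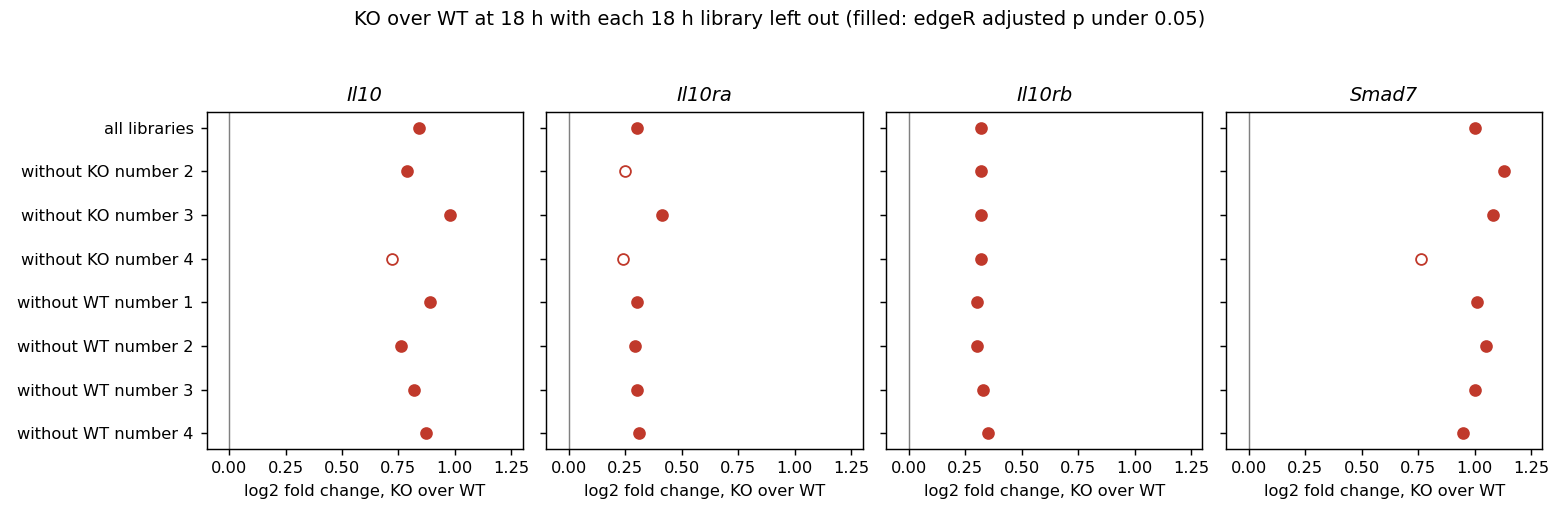
Log2 fold change of KO over WT at 18 h (x axis) for the 4 called genes, with all libraries and with each 18 h library left out in turn (y axis); filled points have an edgeR adjusted p under 0.05. Il10rb stays between 0.30 and 0.35 and is called throughout, while Il10, Il10ra and Smad7 lose the call without KO number 4.

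Tgfb1, Tgfbr1, Tgfbr2, Tgfbi, Smad3 and Il4ra did not pass at 18 h. Tgfb1 averaged 202 ± 21.1 CPM in KO and 224 ± 11.3 CPM in WT (-0.15, 95% interval -0.3 to 0.01), and without KO number 3 it was called lower (-0.24). Tgfbr1 averaged 59.8 ± 10.4 CPM in KO and 72.3 ± 6.2 CPM in WT (-0.27, interval -0.67 to 0.12), and Tgfbr2 averaged 114 ± 15.9 CPM in KO and 121 ± 5.77 CPM in WT (-0.08, interval -0.28 to 0.12). Both receptors and the ligand overlapped between the genotypes. Tgfbi averaged 407 ± 95 CPM in KO and 547 ± 102 CPM in WT (-0.43, interval -0.94 to 0.09). Smad3 averaged 66.4 ± 2.48 CPM in KO and 75.3 ± 2.14 CPM in WT, and each KO library was below each WT library, yet the log2 difference of -0.18 (interval -0.44 to 0.08) did not pass. Il4ra averaged 709 ± 210 CPM in KO and 688 ± 71.1 CPM in WT (0.04, interval -0.35 to 0.43), and without KO number 4 its value was -0.22.

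At 4 h none of the 10 genes was called by edgeR or by limma-voom, where 5.56% of all tested genes were called by edgeR. Of the 10 genes, 7 had an unadjusted p under 0.05, and the share of all tested genes under it was not counted. DESeq2 called 4 (Il10ra, Il10rb, Smad3 and Tgfbr2, all higher in KO), and of 12525 genes it called 535 higher and 361 lower. In 5 genes the groups did not overlap, nor did they in 17.7% of all tested genes. Il10ra averaged 582 ± 42.2 CPM in KO and 474 ± 28.6 CPM in WT (0.30, interval 0.11 to 0.48, edgeR adjusted p = 0.052; 0.35 and called without KO number 3). Il10rb averaged 309 ± 10.8 CPM in KO and 281 ± 5.29 CPM in WT (0.13, interval 0.01 to 0.26). Tgfbr1 averaged 67.7 ± 1.4 CPM in KO and 47.7 ± 15.6 CPM in WT (0.51, interval 0.11 to 0.91), and without WT number 1 its value was 0.30. Those 3 genes and Tgfbr2, at 230 ± 14.7 CPM in KO and 188 ± 21 CPM in WT (0.29, interval 0.09 to 0.49), had each KO library above each WT library.

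Tgfbi went the other way at 4 h, with each KO library below each WT library. It averaged 22.6 ± 3.19 CPM in KO and 41.0 ± 20.9 CPM in WT (-0.87, interval -1.45 to -0.3, edgeR adjusted p = 0.065), and without WT number 1 the value was -0.45. It was called without WT number 2 (-1.01) or number 4 (-1.03). Smad3 averaged 1.83 ± 0.847 CPM in KO and 1.16 ± 0.583 CPM in WT (0.80, interval 0.22 to 1.37, edgeR adjusted p = 0.093), and without KO number 4 the value was 0.24. Without WT number 2 it was called (1.06). Smad7 averaged 2.23 ± 1.2 CPM in KO and 1.37 ± 0.563 CPM in WT (0.73, interval 0.02 to 1.44). Il10 averaged 16.8 ± 8.54 CPM in KO and 21 ± 3.38 CPM in WT (-0.29, interval -0.86 to 0.28), with KO number 4 above every WT library and KO numbers 2 and 3 below every one. Without KO number 4 the Il10 value was -0.83 and not called. Tgfb1 (0.08) and Il4ra (0.05) overlapped.

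At 0 h none of the 10 genes was called by edgeR or by limma-voom, where 3.98% of all tested genes were called by edgeR, with 2 at an unadjusted p under 0.05. DESeq2 called Il10rb (0.19), and of 12525 genes it called 225 higher and 456 lower. The 2 genes at that unadjusted p were Il10rb, at 296 ± 5.24 CPM in KO and 260 ± 9.85 CPM in WT (0.19, interval 0.06 to 0.31, edgeR adjusted p = 0.099), and Il4ra, at 238 ± 60.8 CPM in KO and 168 ± 10.9 CPM in WT (0.51, interval 0.12 to 0.9, edgeR adjusted p = 0.16). Each had all KO libraries above all WT libraries, and at 0 h 17.7% of all tested genes had no overlap in either direction. KO number 2 held 309 CPM of Il4ra against 201 and 206 CPM in the other KO libraries, and without it the value was 0.27. Il10 averaged 2.63 ± 1.39 CPM in KO and 1.78 ± 0.693 CPM in WT (0.47, interval -0.29 to 1.24), and without KO number 2 the value was -0.03. Il10rb therefore stood above WT in every KO library at each of the 3 times, with log2 values of 0.19, 0.13 and 0.32, of which the 18 h value passed.

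**Figure D4:**
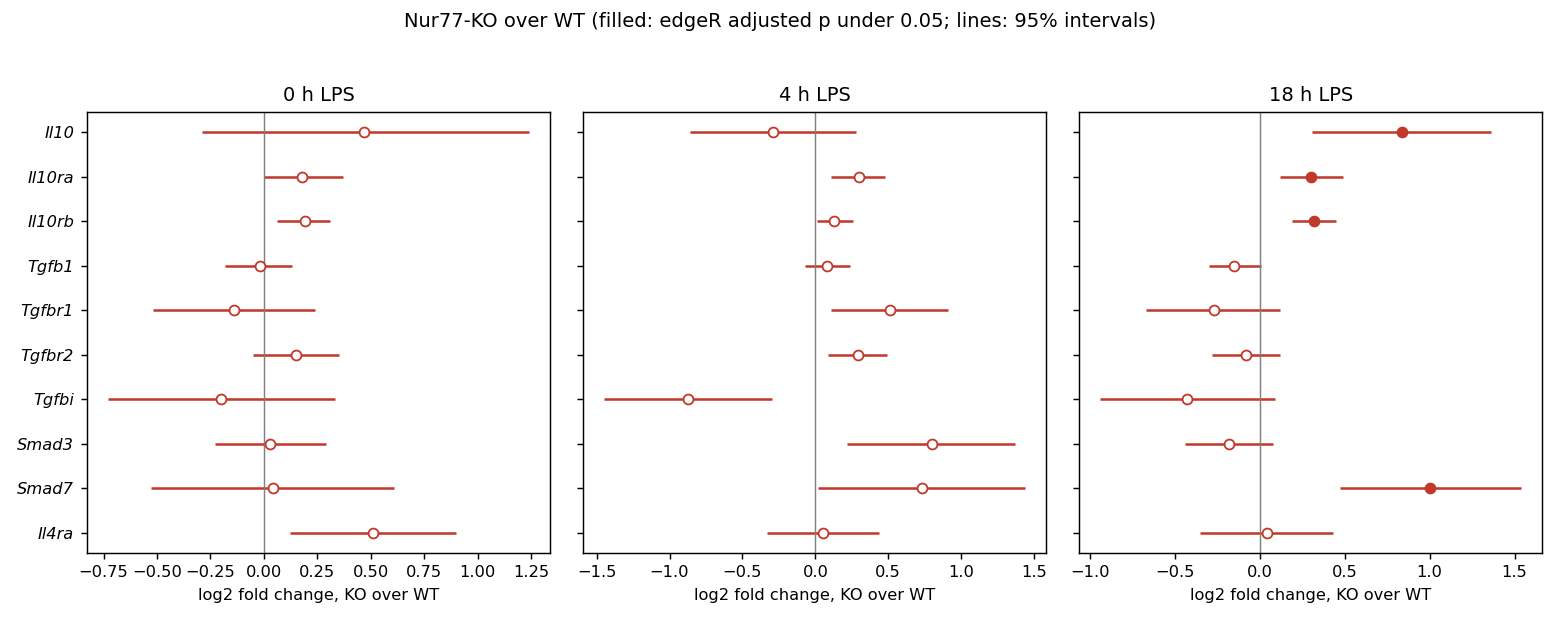
Log2 fold change of KO over WT (x axis) for each gene at 0, 4 and 18 h of LPS, with 95% intervals as lines; filled points have an edgeR adjusted p under 0.05. The 4 filled points are Il10, Il10ra, Il10rb and Smad7 at 18 h, all above 0, and the x axes differ between panels.

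Whether the LPS response itself differed between the genotypes was tested as the change in KO minus the change in WT. At 4 h against 0 h none of the 10 genes was called by edgeR, DESeq2 or limma-voom (2 at an unadjusted p under 0.05; 0.798% of all tested genes were called by edgeR). At 18 h against 0 h none was called by edgeR or by limma-voom, and 1 had an unadjusted p under 0.05. There 17.6% of all tested genes were called by edgeR. DESeq2 called Smad7 and Il10rb, and of 12282 genes it called 1468 higher and 1038 lower. Smad7 stood at 0.96 ± 0.38 (edgeR adjusted p = 0.081) and Il10rb at 0.13 ± 0.09. The Il10 value at 18 h was 0.36 ± 0.45, with a 95% interval of -0.57 to 1.3.

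At 18 h against 4 h, 1 of the 10 genes was called, lower, beside 4.58% of all tested genes called lower (10.8% in all). Of the genes called, 57.7% were higher, and 46.3% with upper-quartile factors. Smad3 regained less in KO than in WT, by log2 -0.98 ± 0.3 (edgeR adjusted p = 0.042), from 4 h levels of 1.27 to 2.81 CPM in KO and 0.731 to 1.97 CPM in WT. The call rested on those low 4 h levels and on single libraries: it ended in 11 of the 14 fits that left out 1 library, where the values ran from -1.24 to -0.42, the smallest without KO number 4 at 4 h. It also ended with limma-voom (-0.98), with summed transcripts (-0.95), with the compared groups alone (-0.98) and in the fit without the libraries of highest stromal level (-0.72). In a fit with a block for the library numbers the Smad3 call ended as well (-0.95), while Il10, Tgfbr1 and Tgfbr2 were called there. Il10 stood at 1.13 ± 0.37 (edgeR adjusted p = 0.057), which DESeq2 (1.18) and limma-voom (1.17) called. In KO the Il10 value between 4 and 18 h was thus 1.62 and in WT 0.49. Without KO number 4 at 4 h, the KO library with 26.6 CPM, the Il10 difference was 1.67 (edgeR adjusted p = 0.0053), and it was also called without KO number 3 at 18 h (1.28) or WT number 2 at 4 h (1.22). Tgfbr1 (-0.79 ± 0.27), Tgfbr2 (-0.37 ± 0.14), Tgfb1 (-0.23 ± 0.1) and Il10rb (0.19 ± 0.09) had unadjusted p under 0.05 and did not pass. Leaving out 1 library brought a call to Tgfbr1 in 4 fits (-0.94 to -0.57), to Tgfbr2 without KO number 4 at 18 h (-0.5) and to Tgfb1 without KO number 3 at 18 h (-0.32).

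The genes around the 10 were read from 7 lists of 90 genes, 74 of them tested. The lists, like the 10 genes, were chosen with earlier results of these data known. Genes of IL-10 signalling and response, from the JAK-STAT path to Socs3, were mostly raised by LPS: at 4 h 12 of 14 were higher and 1 lower in KO, beside 33.5% higher and 41.5% lower of all tested genes, and 12 higher and 1 lower in WT, beside 35.1% and 43.0%. Socs3, the feedback inhibitor that STAT3 induces, averaged 4.07 CPM at 0 h, 1450 CPM at 4 h and 534 CPM at 18 h in KO, and 3.28, 1420 and 308 CPM in WT. Hmox1, heme oxygenase 1, was the gene lower at 4 h, with log2 -1.70 in KO and -1.77 in WT, and then regained 4.65 in KO and 4.48 in WT by 18 h.

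At 18 h 10 of the 14 IL-10 signalling and response genes were higher in KO and none lower (median 0.53, beside -0.01 over all tested genes and 16.6% called higher). Without KO number 4 the count was 8 (10.6% of all tested genes higher), and without the libraries of highest stromal level it was 7 (9.47%). Nfil3, a transcriptional repressor induced by IL-10 in macrophages, averaged 41.3 ± 8.6 CPM in KO and 16.6 ± 1.57 CPM in WT (1.32, edgeR adjusted p = 5e-07). Socs1, an inhibitor of JAK kinases, averaged 68.7 ± 26.7 CPM in KO and 27.7 ± 3.05 CPM in WT (1.32, edgeR adjusted p = 0.00013). Etv3, a repressor of the ETS family, averaged 335 ± 47.7 CPM in KO and 180 ± 21.3 CPM in WT (0.90, edgeR adjusted p = 3.6e-06). These 3 calls held in each of the 7 fits that left out 1 library. Il1rn, which encodes the interleukin 1 receptor antagonist, averaged 24.0, 1650 and 8630 CPM at 0, 4 and 18 h in KO and 37.7, 1850 and 4780 CPM in WT, and its response to 18 h of LPS was larger in KO by 1.5 (edgeR adjusted p = 0.00014).

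At the earlier times fewer genes of that list were called than at 18 h. Of the 14, 1 was higher and 1 lower in KO at 4 h, beside 5.56% of all tested genes called in either direction. At 0 h 1 was lower and none higher, beside 3.98%. At 4 h Etv3 was higher in KO (0.58, edgeR adjusted p = 0.0022; 0.54 and not called without the libraries of highest stromal level) and Maf, a transcription factor of Il10 expression, was lower (-0.61, edgeR adjusted p = 0.046, a call that ended in 5 of 7 fits leaving out 1 library, with values of -0.76 to -0.52). At 0 h Il1rn was lower in KO (-0.65, edgeR adjusted p = 0.023; the call ended in 3 of 7 such fits, with values of -0.75 to -0.52). Of 9 other genes of the IL-10 family, 2 were tested, Il19 and Il20rb. Il19, an IL-10 relative, averaged 3.05 CPM in KO and 3.21 CPM in WT at 4 h, and 0.605 CPM in KO and 0.153 CPM in WT at 18 h (2.07, edgeR adjusted p = 0.0055; 1.72 and not called without KO number 4). Il22 and Il24 had no count in any library.

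The list of TGF-beta ligands, latency and activation was split at 18 h. Of 13 tested genes of 15, 7 were higher in KO and 2 lower (median 0.70), beside 16.6% higher and 15.6% lower of all tested genes. Without KO number 4 the counts were 3 higher and 1 lower, beside 10.6% and 10.5%, and without the libraries of highest stromal level 6 higher and none lower, beside 9.47% and 8.38%. Several of the higher genes varied widely between KO libraries. Ltbp2, a matrix protein of the latent TGF-beta binding family, ran from 2.87 to 35.1 CPM in KO and from 0.906 to 3.94 CPM in WT at 18 h (3.32), and without KO number 4 it was 1.89 and not called. Tgfb2 ran from 0.0 to 3.13 CPM in KO and from 0.0566 to 0.196 CPM in WT (3.61; 2.53 and not called without KO number 4). Lrrc32, which displays latent TGF-beta on the cell surface, ran from 0.261 to 6.54 CPM in KO and from 0.0783 to 0.322 CPM in WT (4.27; 2.57 in the fit with the lowest value, still called). The part of stromal cells in these differences was not tested.

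Thbs1, which encodes thrombospondin 1, an activator of latent TGF-beta, was far more abundant and behaved otherwise. It averaged 934 ± 85.8, 396 ± 73.2 and 13600 ± 2190 CPM at 0, 4 and 18 h in KO and 1020 ± 112, 432 ± 130 and 5790 ± 990 CPM in WT. Its response to 18 h of LPS was larger in KO by 1.36 (edgeR adjusted p = 0.0012), 1.25 to 1.48 in the 14 fits leaving out 1 library, all called, and 1.31 without the libraries of highest stromal level. Nrros, which anchors latent TGF-beta on myeloid cells, was lower in KO at 18 h (-0.35, edgeR adjusted p = 0.025), as was Itgb5, an integrin chain (-0.31, edgeR adjusted p = 0.035). The Nrros call ended in 3 and the Itgb5 call in 4 of 7 fits leaving out 1 library, with values of -0.48 to -0.22 and -0.39 to -0.22. At 0 h Itgav, the integrin chain that binds latent TGF-beta, was lower in KO (-0.71, edgeR adjusted p = 0.0026), and its LPS response at 18 h was larger in KO by 1.0 (edgeR adjusted p = 0.0012). Furin, a protease that cleaves the TGF-beta precursor, was higher in KO at 4 h (0.54; 0.41 and not called without the libraries of highest stromal level). Ltbp1, a latent TGF-beta binding protein, was called higher in KO at 0 h (2.68; the call ended in 6 of 7 fits, with values of 2.25 to 3.57) and at 4 h (3.28; 1.48 and not called without KO number 4).

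Among other receptors and Smads, 4 of 13 tested genes were higher and 1 lower in KO at 18 h, beside 16.6% and 15.6% of all tested genes (32.2% in all). Their median of 0.02 was near the background median of -0.01. Without KO number 4, 2 were higher and none lower (10.6% and 10.5% of all). Acvrl1, a type I receptor of the TGF-beta family, averaged 96.6 ± 20.6 CPM in KO and 50.2 ± 3.86 CPM in WT (0.95, edgeR adjusted p = 5.6e-05), and it was also higher in KO at 0 h (0.84, edgeR adjusted p = 0.0013). Eng, the co-receptor endoglin, averaged 110 ± 6.27 CPM in KO and 79.9 ± 10.6 CPM in WT at 18 h (0.47, edgeR adjusted p = 0.00059), whereas at 0 h it averaged 16.7 ± 1.61 CPM in KO and 21.7 ± 1.27 CPM in WT (-0.38, edgeR adjusted p = 0.027). Both 18 h calls held in each of the 7 fits leaving out 1 library, and the 0 h call of Eng ended in 3 of 7 (-0.45 to -0.31). Zfyve9, an adaptor for SMAD2 and SMAD3, was higher at 18 h (0.96) and Smad5, a transducer of BMP signals, lower (-0.43), and without KO number 4 neither was called (0.76 and -0.35). Tgfbr3, the type III co-receptor, was called higher (2.61) and stood at 1.01, not called, without KO number 4. At 4 h Bambi, a decoy receptor, was higher in KO (1.24, edgeR adjusted p = 0.005; 1.15 and not called without the libraries of highest stromal level), and at 0 h Acvr1b, an activin receptor, was lower (-0.32, edgeR adjusted p = 0.023; the call ended in 3 of 7 fits, with values of -0.35 to -0.28).

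Of 12 feedback genes and Smad inhibitors, 5 were higher in KO at 18 h and none lower (median 0.25), beside 16.6% and 15.6% of all tested genes, and 3 were higher without KO number 4, beside 10.6%. Pmepa1, a TGF-beta-induced inhibitor that sequesters SMADs, averaged 10.5 ± 4.12 CPM in KO and 3.43 ± 0.221 CPM in WT (1.62, edgeR adjusted p = 0.00017). Tgif1, a SMAD corepressor (0.36), and Usp15, a deubiquitinase (0.31), were higher by less, and these 3 calls held in each of 7 fits leaving out 1 library. Usp11 (0.47) and Tgfb1i1 (2.63) were called too, and without KO number 4 they stood at 0.44 and 1.39 and were not. The Tgfb1i1 call ended in 3 of the 7 fits. Of 8 tested response genes of TGF-beta, 4 were higher in KO at 18 h and none lower (median 0.21), beside the same 16.6% and 15.6%, and 3 were higher without KO number 4, beside 10.6%. Fn1, fibronectin, ran from 9.66 to 192 CPM in KO and from 5.13 to 11.7 CPM in WT (3.64; 2.34 at the lowest), and Ccn2, a matricellular growth factor, from 3.22 to 36.8 CPM in KO and from 0.488 to 2.09 CPM in WT (3.73; 2.63 and not called without KO number 4). Cdkn1a, a cell cycle inhibitor, was higher by 0.57 and Id2, an inhibitor of helix-loop-helix factors, by 0.33. Id2 was 0.24 and not called without KO number 3. Fn1 and Ccn2 are also made by stromal cells, whose part was not tested. Id1, another such inhibitor and a target of BMP receptors, averaged 10.6 ± 1.64 CPM in KO and 13.2 ± 1.47 CPM in WT at 18 h, beside 0.299 and 0.337 CPM at 0 h.

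Around Il4ra, 5 of 12 tested genes of IL-4 and IL-13 signalling and response were higher in KO at 18 h and none lower (median 0.77), beside 16.6% and 15.6% of all tested genes, and 4 were higher without KO number 4, beside 10.6%. Il13ra1, the chain that joins Il4ra in the IL-13 receptor, averaged 26.8 ± 3.64, 169 ± 13.1 and 68.5 ± 18.4 CPM at 0, 4 and 18 h in KO and 25.8 ± 1.29, 144 ± 10.3 and 24.9 ± 4.54 CPM in WT. It was higher in KO at 18 h by 1.47 (edgeR adjusted p = 4.2e-07), and its LPS response at 18 h was larger in KO by 1.41 (edgeR adjusted p = 0.00012). Both values were called in each fit that left out 1 library (1.23 to 1.61 and 1.17 to 1.56). Il4ra itself thus stood at 0.04 while its partner chain was higher. Ccl22, a chemokine, averaged 50.2 ± 7.3 CPM in KO and 14.1 ± 3.02 CPM in WT at 18 h (1.84, edgeR adjusted p = 0.0035). Chil3, a chitinase-like protein, was higher in KO at 0 h (1.78, edgeR adjusted p = 0.0039) and at 18 h (1.56, edgeR adjusted p = 0.0026), and without the libraries of highest stromal level neither was called (1.55 and 1.31). Socs2 (2.19) and Cish (1.95), inhibitors induced by STAT5, were at no more than 2.7 CPM in any library at 18 h, and Cish was 1.08 and not called without KO number 4. At 4 h Cish averaged 35.5 ± 1.21 CPM in KO and 16.0 ± 6.7 CPM in WT (1.14, edgeR adjusted p = 0.022; the call ended in 3 of 7 fits, with values of 0.89 to 1.34). Mrc1, the mannose receptor that IL-4 raises, averaged 23.1 CPM in KO and 24.8 CPM in WT at 18 h, beside 991 and 1010 CPM at 0 h. Arg1, of the same list, went the other way, by log2 7.65 in KO and 6.84 in WT. At 18 h against 0 h, 4 of the 12 tested genes were higher and 3 lower in each genotype. Of all tested genes, 34.5% were higher and 38.5% lower in KO, and 34.8% and 36.3% in WT. Il4, Il13 and Il13ra2 were at no more than 0.477 CPM in any library.

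**Figure D5:**
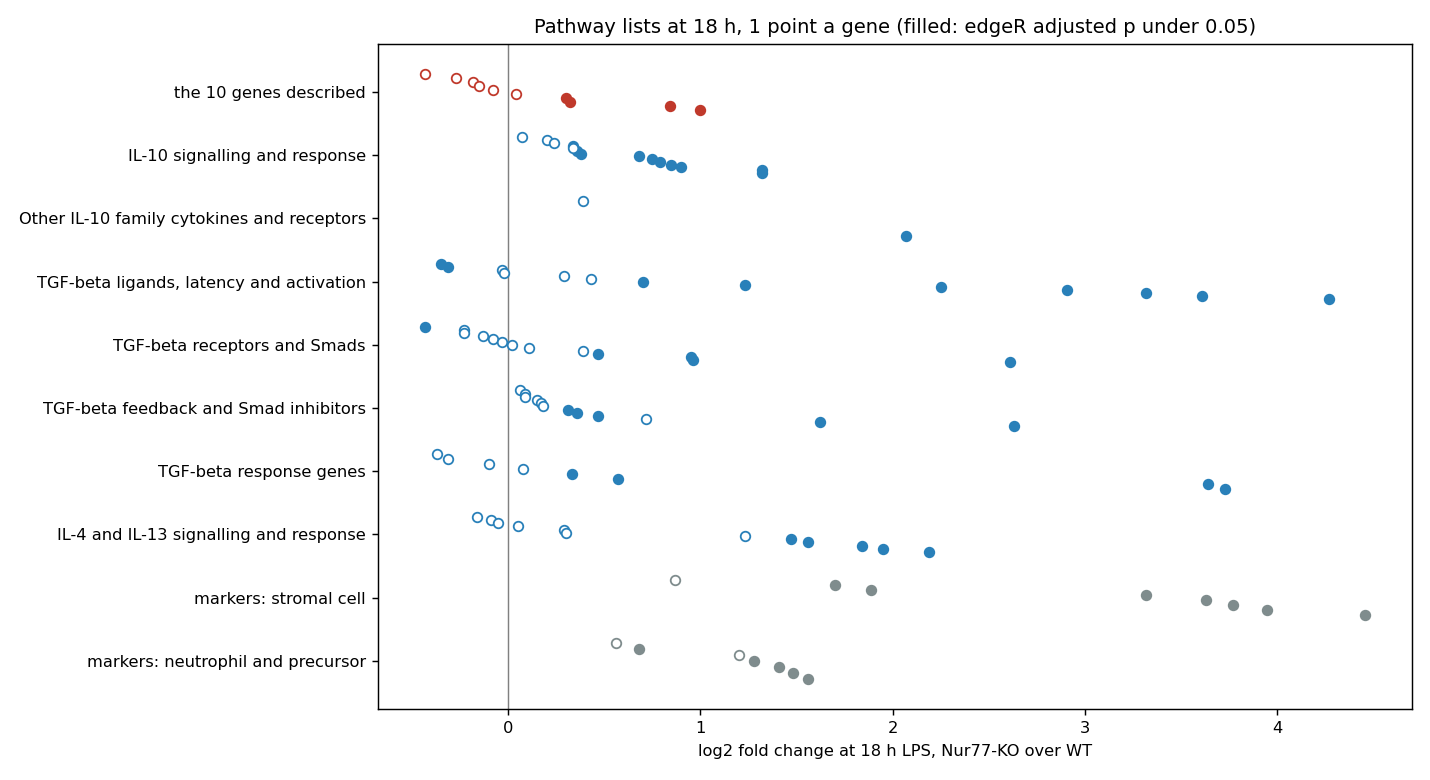
Log2 fold change of KO over WT at 18 h (x axis), 1 point for each tested gene of the 10 described, of the 7 surrounding lists and of the stromal and neutrophil marker lists (y axis); filled points have an edgeR adjusted p under 0.05. In the IL-10 signalling and response list all 14 points are above 0, and the stromal markers reach the highest values of any list.

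Genes with courses like those of Il10, Tgfb1 and Tgfbi were sought with clone-named genes and pseudogenes left out. Over all 21 libraries, the genes whose log2 CPM followed Il10 most closely were Ddx60 (Pearson r = 0.986), Ifit3b (0.986), H2-T22 (0.982), Ifitm3 (0.982) and Psme1 (0.982). Ddx60 averaged 37.6, 319 and 779 CPM at 0, 4 and 18 h in KO and 32.1, 303 and 480 CPM in WT. Those nearest Tgfb1 were Abca9 (0.973), Cep63 (0.973), Gdpd1 (0.972), Zfp28 (0.972) and Slc9a7 (0.971), which all had their lowest means at 18 h. Those nearest Tgfbi were Pstpip1 (0.991), Cyrib (0.989), Limd2 (0.984), Zbtb7b (0.979) and Vti1a (0.978). Pstpip1 averaged 41.8, 33.5 and 154 CPM at 0, 4 and 18 h in KO and 44.8, 45.3 and 159 CPM in WT. The others nearest Il10 also averaged more in KO than in WT at 18 h: Ifit3b (949 and 671 CPM), H2-T22 (1200 and 798), Ifitm3 (1950 and 1580) and Psme1 (557 and 416). All libraries share the 3 times of LPS, so these correlations describe the time course, with any genotype difference within it, and carry no test.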

How the data were processed

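The 21 poly-A libraries were sequenced by the submitters, who used CASAVA 1.8.2 and HISAT2 2.1.0 with mm10, per the submitters' processing notes. The deposited values are estimated counts per RefSeq transcript from the authors, in steps of 0.5, and the counting tool and its use of strand were not stated. They were rounded to whole numbers for a test planned for counts. Of 42361 transcripts, 42203 were named from a RefSeq table (GRCm38.p6) and 65 from GENCODE alone. The 93 without a gene name, 0.232% to 2.229% of a library's counts, were left out. Each of 25067 genes kept its transcript of highest mean count. Totals after this were 12301504 to 29650081 per library, and low genes are the least precise. Libraries of one group differed by more than sampling noise in every pair.

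Groups follow the labels. The fit was edgeR 4.0.16 (R 4.3.3) with TMM factors, the default expression filter and 6 group means, with Benjamini-Hochberg adjustment over 12529 genes, and it was tested on simulated data. Alternatives were DESeq2 1.42.0, limma-voom 3.58.1, other scalings and filters, summed transcripts, a fit of only the groups compared, a replicate block, and fits without single libraries. Standard errors and 95% intervals were derived from the fold change and its F statistic. The 10 genes and the surrounding lists were chosen with earlier results of these data known. One gene of these lists is not reported here and was left out of their counts. From each list the text names every called gene where 5 or fewer were called in a genotype comparison, otherwise the 3 of largest change per direction. With LPS the rule allowed up to 3 per direction, and only some of these are named. Genes outside that rule (such as undetected ones) were named after their values were seen. Same-numbered WT libraries of 0 and 4 h deviated together (r of 0.23 to 0.32 in 4 of 4 pairs, against -0.23 to 0.09 for differing numbers), so the numbers pair them. What these numbers stand for is not in the labels, and the block changed no call of the 10 genes in that comparison.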

Additional observations from a re-analysis of the deposited data

Results flagged for a closer look

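Each value here is the LPS response in KO minus that in WT, on the log2 scale, and was picked out because edgeR's test of that difference passed at an adjusted p under 0.05. Smad3 at 18 h against 4 h was the 1 such gene among the 10 described, at -0.98, and it held in 3 of 14 fits that left out 1 library.

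Among the surrounding genes at 18 h against 0 h, the response was larger in KO for Nfil3 (1.03), Etv3 (0.73), Il1rn (1.5), Zfp36 (0.72), Furin (0.56), Itgav (1.0), Thbs1 (1.36), Eng (0.85), Il2rg (0.7) and Il13ra1 (1.41), each called in all 14 fits that left out 1 library. It was also larger in KO for Tgif1 (0.39), Pmepa1 (1.23), Usp15 (0.33), Id2 (0.43) and Cdkn1a (0.62), and smaller for Nrros (-0.54), Itgb5 (-0.44) and Smad5 (-0.55). Of these 8, the Itgb5 call ended in 12 of 14 fits, with values of -0.52 to -0.35, the Pmepa1 call in 10 (1.02 to 1.52), the Id2 call in 8 (0.31 to 0.54), the Nrros call in 3 (-0.66 to -0.4), the Smad5 call in 3 (-0.69 to -0.47), and the calls of Tgif1 (without KO number 2 at 0 h, 0.36), Usp15 (without KO number 3 at 0 h, 0.27) and Cdkn1a (without KO number 3 at 0 h, 0.52) in 1 each.

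From 4 h to 18 h the change was more positive in KO for Stat3 (0.67), Socs1 (1.24), Nfil3 (0.97), Il1rn (1.02), Zfp36 (0.86), Thbs1 (1.36), Eng (0.79) and Il13ra1 (1.23), each called in all 14 fits. Values for Il19 (2.12), Acvrl1 (0.8), Ccl22 (2.06) and Stat6 (-0.33) were called with all libraries. Their calls ended in 6 (Il19, 1.77 to 2.56), 7 (Acvrl1, 0.61 to 0.99), 8 (Ccl22, 1.89 to 2.43) and 5 (Stat6, -0.36 to -0.27) of 14 fits. Of the calls that held in all 14 fits, 4 ended in the fit without the libraries of highest stromal level: Stat3 (0.75) and Socs1 (1.22) at 18 h against 4 h, and Furin (0.42) and Il2rg (0.68) at 18 h against 0 h. With all libraries these values were 0.67, 1.24, 0.56 and 0.7, and that fit holds 1 library fewer in each group. For the 10 genes, none of the 30 groups of 4 WT libraries had a value past Dixon's limit, and groups of 3 KO libraries were not looked at, although over all genes WT number 1 stood apart at 4 h and 0 h.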

How the results depend on the processing

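Over 120 results (10 genes in 12 comparisons), direction and side of the threshold were the same in 104 with DESeq2, 116 with limma-voom, 114 with median-of-ratios factors, 111 with upper-quartile factors, 118 with no filter, 117 with a 5 CPM filter, 118 with summed transcripts, 115 with the compared groups alone, 114 with the replicate block and 108 without the libraries of highest stromal level (the last chosen after seeing the data). The causes were not tested. The count of the 10 genes called between KO and WT at 0 h became 1 with DESeq2. At 4 h it became 4 with DESeq2, 1 with median-of-ratios factors, 1 with upper-quartile factors, 1 with no filter, 1 with a 5 CPM filter, and 0 to 2 on leaving out 1 library. Over all tested genes at 4 h, 535 were called higher and 361 lower with DESeq2 (of 12525). These calls were 413 and 287 with median-of-ratios and 382 and 311 with upper-quartile factors (of 12529). They were 355 and 367 with no filter (of 17997) and 377 and 302 with a 5 CPM filter (of 10079). At 18 h the count of the 10 genes became 1 without the libraries of highest stromal level and ran from 1 to 5 on leaving out 1 library. For the KO minus WT response at 18 h against 0 h it became 2 with DESeq2 and 1 with the compared groups alone. For the response from 4 h to 18 h it became 4 with DESeq2, 2 with median-of-ratios factors, 2 with upper-quartile factors, 2 with no filter, 0 with summed transcripts and 3 with the replicate block (Il10 1.14, Tgfbr1 -0.82 and Tgfbr2 -0.38, with Smad3 at -0.95 and not called), and ran from 0 to 3 on leaving out 1 library. Over all tested genes DESeq2 called 1092 higher and 601 lower of 11310 for that response. The block also called Il10 (0.51) and Il4ra (-0.34) in WT at 18 h against 4 h. Outside the WT comparison of 4 h with 0 h, it is not settled whether numbers pair libraries, and the labels do not say. Same-numbered KO libraries of 4 and 18 h had r of 0.1 to 0.5, against -0.48 to 0.11 for differing numbers. In WT the same times gave -0.03 to 0.12, against -0.17 to 0.14.

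The values that reversed lay between -0.27 and 0.47 with all libraries. With upper-quartile factors Il10ra at 18 h against 0 h was -0.07 in KO and -0.15 in WT, its response difference at 18 h against 4 h was -0.04, and Il10rb at 4 h against 0 h was -0.27 in KO and -0.23 in WT. With the 5 CPM filter Il10ra at 18 h against 0 h in WT was -0.02. Without the libraries of highest stromal level it was -0.01, Il4ra between KO and WT was -0.2 at 18 h and -0.19 at 4 h, Tgfb1 at 0 h was 0.01, and the Tgfbr1 response difference at 18 h was 0.14. The Il4ra response difference at 18 h against 4 h was 0.02 with DESeq2 and 0.02 with median-of-ratios factors. On leaving out 1 library, KO against WT at 0 h ran from -0.03 to 0.81 for Il10, -0.01 to 0.06 for Smad3, -0.06 to 0.2 for Smad7 and -0.07 to 0.01 for Tgfb1. Il4ra ran from -0.22 to 0.2 at 18 h and -0.13 to 0.23 at 4 h. LPS values ran from -0.01 to 0.06 for Il10ra (WT, 18 h against 0 h), -0.51 to 0.08 for Smad7 (KO, 4 h against 0 h) and -0.52 to 0.07 for Tgfbi (WT, 4 h against 0 h). Response differences at 18 h against 4 h ran from -0.06 to 0.12 for Il10ra, -0.28 to 0.17 for Il4ra and -0.08 to 0.51 for Smad7. Low counts limit the precision for Smad3 at 4 h and for Smad7.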
